A study of Mus musculus with 2 samples.

Results

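The genes described here encode collagens, laminins and other proteins of the extracellular matrix, the protein and sugar mesh that surrounds cells. They were chosen by symbol: the numbered collagen, laminin and fibulin genes, both fibrillins and both nidogens, and 17 single matrix genes such as Dcn, Fn1, Sparc and Ncan. The rule found 80 of the 43346 genes in the deposited tables, and all counts below are over the 80. The name given to the set points to meninges and vessels, but the rule also took in the proteoglycans and glycoproteins of brain tissue itself.

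The study holds 2 RNA-seq libraries of mouse midbrain at postnatal day 0, from animals of the B6NCrl strain. One library came from the midbrain of pup 1 and the other from the midbrain of pup 3, and both pups carry 1 donor record in the labels. No genotype other than the strain and no treatment is given, and sex was not collected. RNA was extracted with a mirVana kit and kept above 200 bases. From each midbrain 13 pg of the RNA, labelled 1 cell-equivalent, was amplified by a SMART-type protocol, and spike-in RNAs were added. Although the assay carries the name of single-cell RNA-seq, its input was RNA from tissue, not an isolated cell. Both libraries belong to 1 group, so no condition could be compared and no test was possible: pup 1 is set against pup 3 below, with 1 library for each.

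The extracellular matrix of the newborn brain comes in several forms. Fibrillar collagens, made by the fibroblasts of the meninges and around larger vessels, assemble into cables that small leucine-rich proteoglycans such as decorin bind and space. Basement membranes, the thin sheets under the pia and around vessels, are built from collagen IV and laminin, joined by nidogens and perlecan. The tissue between neurons holds little collagen and is instead filled with hyaluronan, proteoglycans such as neurocan and brevican, and tenascins, much of it made by glia and neurons.

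The estimated counts over genes summed to 26037002 in the library of pup 1 and to 32408655 in that of pup 3. A count of 0 allowed up to 0.115 CPM (counts scaled by the library total) in pup 1 and 0.0926 CPM in pup 3, the level of 3 counts. Levels are given in TPM, which divides counts by transcript length and is the scale on which genes are compared with each other. Ratios are of counts, pup 1 over pup 3, each divided by its library's total over genes. Their 95% exact (Clopper-Pearson) intervals cover counting error only, since amplified reads are not independent molecules. A bound given as at least a fold is therefore one of reads and not of molecules. Each ± is an SD over n = 2 libraries. In RNA of a whole tissue, fewer cells of a type and less RNA per cell cannot be told apart.

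Of the 80 matrix genes, 33 were detected in both libraries, with a TPM of 1 or more in each, against 17.0% of all 43346 genes. Pup 1 alone had 9 more (6.41% of all genes) and pup 3 alone had 10 more (4.56% of all genes). The remaining 28 were below that limit in each (72.0% of all genes), and 25 of those had 0 counts in both. Of all 43346 genes, 28717 had 0 counts in both. Of the 52 members detected in either library, 63.5% were detected in both, near the 60.8% of all such genes. Detection in both libraries went with level: among the 29 members with a mean TPM of 10 or more, 26 were detected in both, against 78.2% of all genes at that level. Of the 23 members detected below that mean, 7 were detected in both, against 23.4% of all such genes. Summed over the members, the TPM was 2497 in pup 1 and 2131.2 in pup 3.

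**Figure D1:**
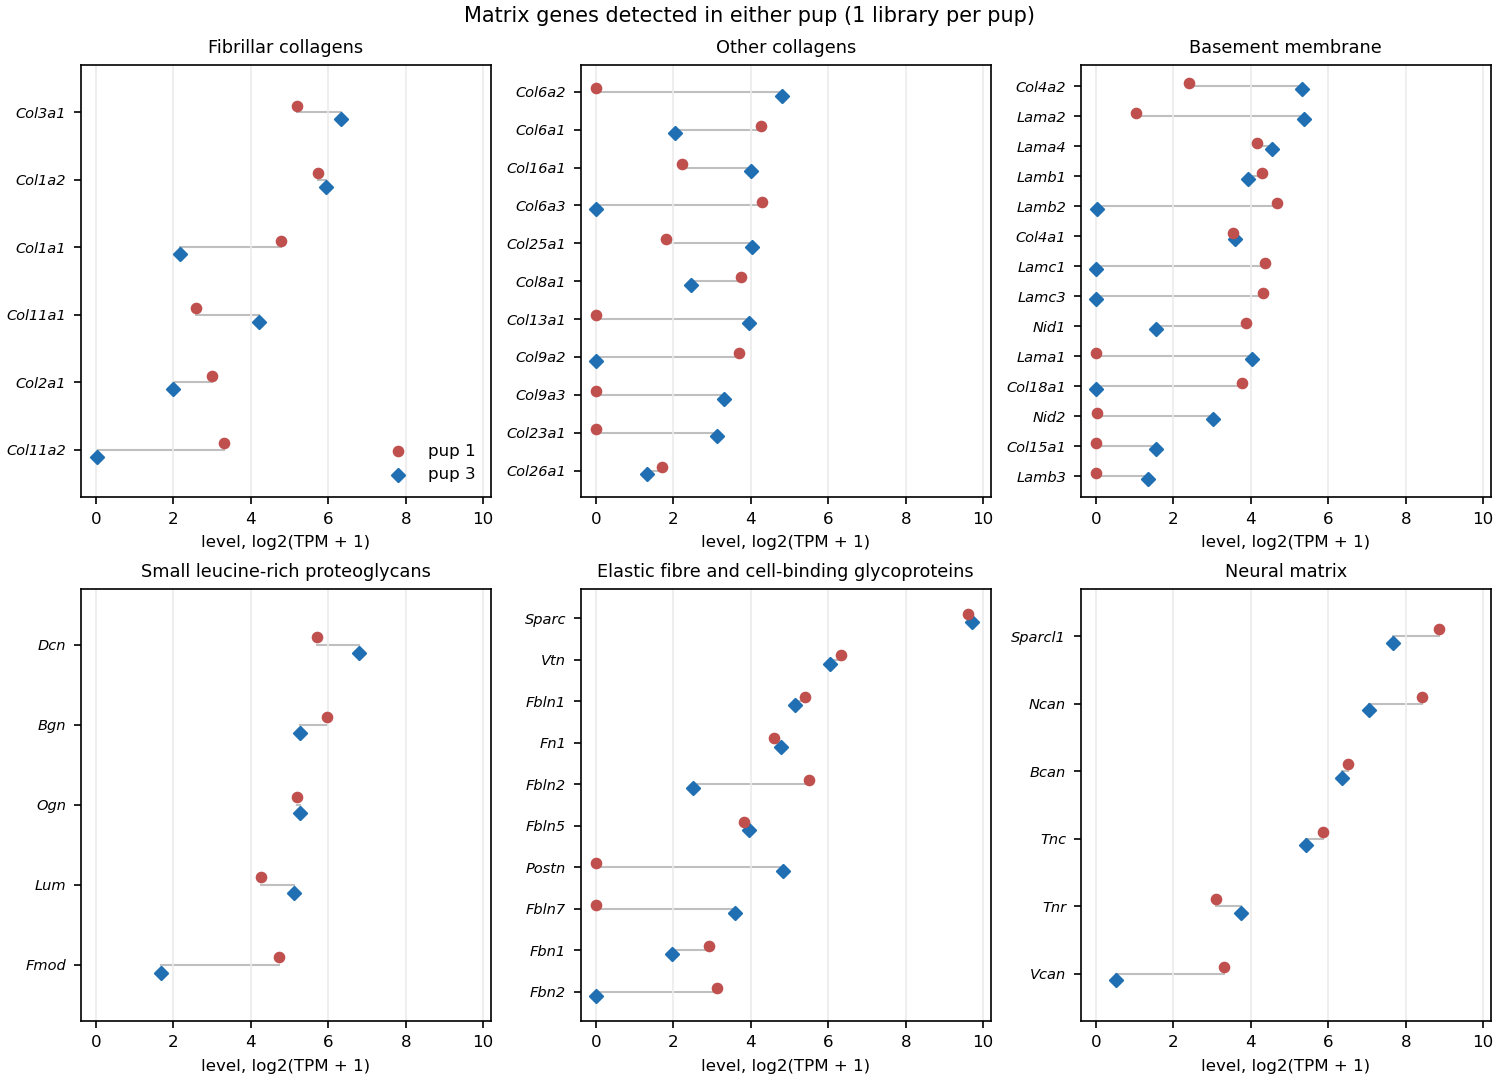
Level, as log2(TPM + 1), of the 52 members detected in either library, in 6 panels by subgroup. Each point is 1 library, and genes in a panel are ordered by mean TPM. Sparc, Sparcl1 and Ncan stand above the other members in both libraries, and Postn and Col6a2 are at 0 in pup 1.

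The count ratio lay wholly beyond 4-fold for 27 of the 55 members with a count in either library, against 41.0% of the 14605 genes with a count. It was higher in pup 1 for 14 of them (23.1% of all genes) and lower in pup 1 for 13 (17.9% of all genes). Among the 29 members with a mean TPM of 10 or more, 9 were over 4-fold apart, against 34.3% of all genes at that level. Of the 23 members detected below that mean, 18 were, against 72.8% of all such genes. The members' median log2 count ratio was 0.22 (54 members with 3 or more counts in a library), beside -0.0027 over all 13480 such genes. The median size of the log2 ratio, whatever its sign, was 2.33 for the members and 2.18 for all genes. The members were about as far apart between the 2 libraries as genes in general, so each ratio below describes these libraries and not the pups.

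**Figure D2:**
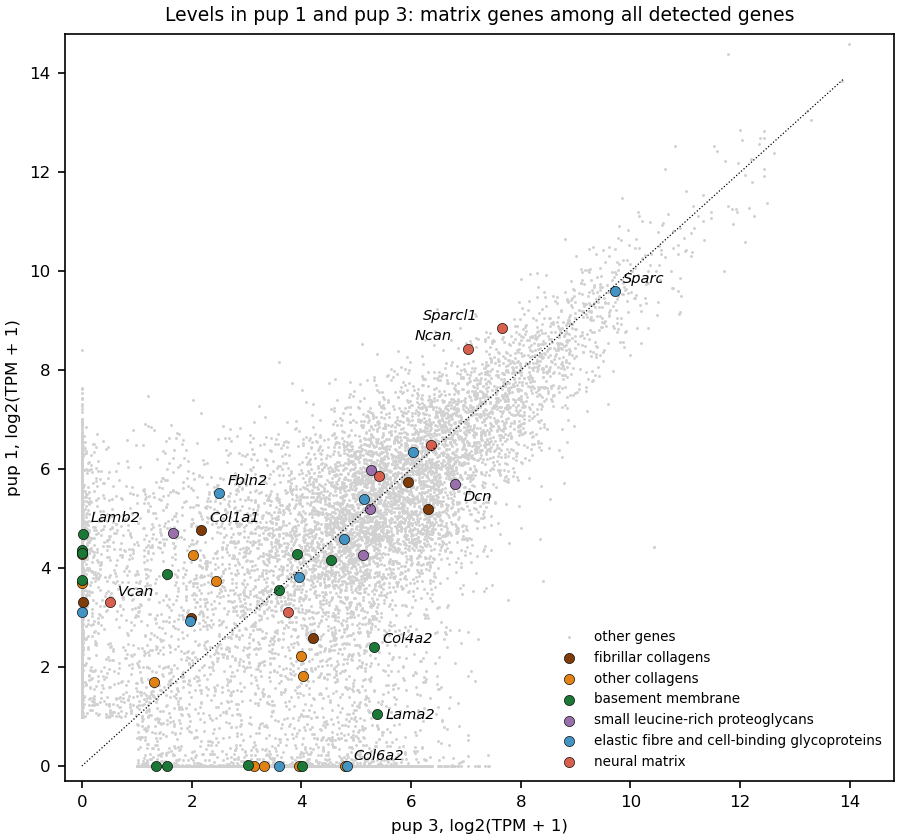
Level of each member in pup 1 (vertical) against its level in pup 3 (horizontal), both as log2(TPM + 1), coloured by subgroup, with other detected genes in grey. Points on the diagonal have equal levels, and points on an axis edge were at or near 0 in 1 library, such as Lamc1 and Lamc3 in pup 3 and Lama1 and Postn in pup 1.

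Promoter windows from RefSeq (build GRCm38.p6), from 250 bases before to 50 bases after the start, were matched by symbol for 59 of the 80 genes. Printed here are those of 4 genes to which the results return: Col4a1 and Col4a2, which encode the main collagen IV chains and start head to head, Col1a2, the fibrillar gene nearest to level between the pups, and Ncan, the leading gene of neural matrix. Each is written 5′ to 3′ on its gene's strand. In the first pair the capitals mark the bases that both windows share, read on opposite strands; in the other pair they mark matches to 3 short motifs, the TATA, CCAAT and GC boxes, each searched on both strands.
Col4a1, chr8:11312777-11313076, minus strand: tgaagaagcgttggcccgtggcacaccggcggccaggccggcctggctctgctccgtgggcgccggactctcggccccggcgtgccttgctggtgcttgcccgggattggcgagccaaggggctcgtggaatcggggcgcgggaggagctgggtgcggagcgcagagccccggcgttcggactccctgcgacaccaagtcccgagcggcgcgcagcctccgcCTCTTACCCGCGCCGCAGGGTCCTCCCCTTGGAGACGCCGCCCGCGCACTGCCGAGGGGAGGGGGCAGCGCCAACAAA
Col4a2, chr8:11312555-11312854, plus strand: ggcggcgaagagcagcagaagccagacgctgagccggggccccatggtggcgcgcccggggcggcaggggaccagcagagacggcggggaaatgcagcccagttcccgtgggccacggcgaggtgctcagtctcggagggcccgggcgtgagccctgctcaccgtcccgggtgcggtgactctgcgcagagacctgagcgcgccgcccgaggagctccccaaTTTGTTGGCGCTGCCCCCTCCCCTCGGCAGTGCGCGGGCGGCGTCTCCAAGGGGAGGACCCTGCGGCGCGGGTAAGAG
Col1a2, chr6:4505368-4505667, plus strand: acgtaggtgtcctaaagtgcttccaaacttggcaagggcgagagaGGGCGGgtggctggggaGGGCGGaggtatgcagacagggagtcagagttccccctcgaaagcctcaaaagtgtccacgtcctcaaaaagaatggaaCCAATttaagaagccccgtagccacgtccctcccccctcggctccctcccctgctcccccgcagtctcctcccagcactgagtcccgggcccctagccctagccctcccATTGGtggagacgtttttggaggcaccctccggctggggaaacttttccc
Ncan, chr8:70120795-70121094, minus strand: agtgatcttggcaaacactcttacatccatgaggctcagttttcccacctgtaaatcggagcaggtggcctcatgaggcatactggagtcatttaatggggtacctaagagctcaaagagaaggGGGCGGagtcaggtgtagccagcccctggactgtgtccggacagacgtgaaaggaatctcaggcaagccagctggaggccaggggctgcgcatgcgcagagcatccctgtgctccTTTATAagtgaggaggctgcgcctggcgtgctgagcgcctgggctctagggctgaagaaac

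The windows of Col4a1 and Col4a2 shared 78 bases, chr8:11312777-11312854, of which 73.1% were G or C. That shared stretch held 1 GC box, no TATA box and no CCAAT box. The Col1a2 window held 2 CCAAT boxes and 2 GC boxes, and the Ncan window 1 TATA box and 1 GC box. Over the 59 members with a window, 37 (62.7%) held a GC box, searched as GGGCGG, against 38.2% of 27025 genes. The members' windows were also richer in G and C, with a median of 60% against 52.75% for all genes. Its part in the share of GC boxes was not tested. The CCAAT box, searched by those letters, was found for 22 members (37.3%), against 41.1% of all genes, and a TATA box, searched as TATAAA, for 10 members (16.9%), against 15.7% of all genes. Of the members detected in both libraries, 18 of 25 held a GC box, and of those detected in neither, 13 of 21 did. These matches describe letters in a window and not factor binding.

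Fibrillar collagens, the rope-forming chains of connective tissue, accounted for 5.42% of the members' summed TPM in pup 1 and 7.68% in pup 3. Of the 11 genes, 5 were detected in both libraries and 1 in pup 1 only, against 17.0% and 6.41% of all genes. Col3a1, which encodes the chain of collagen III of vessels and soft tissue, stood at 35.8 TPM in pup 1 and 78.8 TPM in pup 3 (57.3 ± 30.3). Col1a2, the α2 chain of collagen I, stood at 52.3 TPM in pup 1 and 60.9 TPM in pup 3 (56.6 ± 6.04). Col1a1, the α1 chain that is the larger part of the collagen I trimer, stood at 26.2 TPM in pup 1 and 3.49 TPM in pup 3. Col1a2 was thus nearly level between the pups while its partner chain was not: the count ratio was 0.752 (0.725 to 0.781) for Col1a2 and 6.70 (6.06 to 7.41) for Col1a1. Within each library Col1a1 was below Col1a2, by a log2 TPM ratio of -2.38 ± 1.99.

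Col11a1, a chain of the collagen XI that seeds fibrils, had 5.02 TPM in pup 1 and 17.6 TPM in pup 3. Col2a1, the chain of cartilage collagen II, had 6.94 TPM in pup 1 and 2.98 TPM in pup 3. Col11a2, another collagen XI chain, had 450 counts in pup 1 and 1 count in pup 3, a ratio of 560.1 with a wide interval (100.02 to 22172). The collagen II and XI chains were read in these midbrains at levels below the collagen I and III chains, except that Col11a1 was above Col1a1 in pup 3. Col5a1, Col5a2, Col5a3, Col24a1 and Col27a1 had 0 counts in both libraries. Col5a2 lies 24614 bases from Col3a1 on chromosome 1.

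Of the 25 other interstitial and cell-surface collagens, 5 were detected in both libraries, near the 17.0% of all genes, and 14 in neither, against 72.0% of all genes. Their TPM summed to 69.4 in pup 1 and 97.4 in pup 3. Collagen VI forms beaded filaments around cells from an α1, an α2 and an α3 chain, and the libraries split these chains between them. Col6a1 was read in both, with 18.1 TPM in pup 1 and 3.08 TPM in pup 3. Col6a2 had 0 counts in pup 1 and 2495 counts (26.9 TPM) in pup 3. By its exact interval its reads were at least 543-fold lower in pup 1. Col6a3 had 809 counts (18.4 TPM) in pup 1 and 0 in pup 3, at least 272-fold higher in reads in pup 1 by its exact interval. Of that level, 4.73 TPM was on protein-coding transcripts. So neither library held all 3 chains. Col6a1 and Col6a2 lie 85161 bases apart on chromosome 10, and whether position bears on their levels was not tested.

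Among the rest of this class, Col16a1, a chain that associates with fibrils, had 3.68 TPM in pup 1 and 15.0 TPM in pup 3, none of it on protein-coding transcripts. Col25a1, which encodes a membrane collagen of neurons, had 2.51 TPM in pup 1 and 15.3 TPM in pup 3, a count ratio of 0.208 (0.182 to 0.236). Col8a1, a short-chain collagen known from vessel walls, had 12.3 TPM in pup 1 and 4.43 TPM in pup 3. Col26a1 was the last of the class read in both, at 2.24 TPM in pup 1 and 1.49 TPM in pup 3. The collagen IX chains, which decorate collagen II fibrils in cartilage, did not occur together: Col9a2 had 12.0 TPM in pup 1 and 0 in pup 3, and Col9a3 had 0 in pup 1 and 8.97 TPM in pup 3. The membrane collagens Col13a1 and Col23a1 had 0 counts in pup 1, and 14.5 and 7.78 TPM in pup 3. With 0 counts in both libraries stood Col6a4, Col6a5, Col6a6, Col8a2, Col9a1, Col10a1, Col12a1, Col14a1, Col17a1, Col19a1, Col20a1, Col22a1 and Col28a1. Col7a1, the anchoring fibril collagen of skin, had 3 counts in pup 1 and 0 in pup 3.

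Basement membrane genes summed to 142 TPM in pup 1 and 156 TPM in pup 3. On protein-coding transcripts alone the sums were 127 TPM in pup 1 and 93.6 TPM in pup 3, which turns their order. Of the 22 genes, 6 were detected in both libraries, and 8 reached the limit in neither, against 17.0% and 72.0% of all genes. Another 4 were detected for pup 1 alone and 4 for pup 3 alone, against 6.41% and 4.56% of all genes. Of the 16 with a count, 5 were over 4-fold higher in pup 1 and 6 were over 4-fold lower in pup 1, against 23.1% and 17.9% of all genes with a count. That share went with level. It was 72.8% in either direction for all genes detected at a mean TPM under 10, and 34.3% at 10 or more. The 16 include genes of both levels.

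Collagen IV, the network-forming collagen of all basement membranes, was read through its vascular and general chains. Col4a1 had 10.7 TPM in pup 1 and 11.1 TPM in pup 3 (10.9 ± 0.240), a count ratio of 0.863 (0.799 to 0.931). Col4a2 had 4.31 TPM in pup 1 and 39.1 TPM in pup 3, a ratio of 0.0982 (0.0890 to 0.108). Of the 2 genes only Col4a1 was near even, and the log2 TPM ratio of Col4a1 to Col4a2 was 1.14 in pup 1 and -1.73 in pup 3. They share the promoter stretch printed above, and its part in these levels was not tested. Col4a3, Col4a4, Col4a5 and Col4a6, whose chains build the kidney, lung and smooth muscle forms, had 0 counts in both libraries.

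Laminins are cross-shaped trimers of an α, a β and a γ chain that bind cells to the basement membrane. Of the α chains, Lama4, known from endothelium, had 17.0 TPM in pup 1 and 22.3 TPM in pup 3, of which 4.46 TPM in pup 1 and 1.19 TPM in pup 3 was on protein-coding transcripts. Lama5, the α chain of mature vessels, had 0.10 TPM (1 count) in pup 1 and 0 in pup 3. Lama2, the α chain of muscle and of the glial side of brain vessels, had 1.06 TPM in pup 1 and 40.6 TPM in pup 3. Lama1, known from the pial surface, had 0 counts in pup 1 and 3264 counts (15.2 TPM) in pup 3. By its exact interval its reads were at least 710-fold lower in pup 1. Lama2 and Lama4 were detected in both libraries, but the Lama2 value of pup 3 had no protein-coding transcript behind it.

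The β chain Lamb1 was even, at 18.5 TPM in pup 1 and 14.2 TPM in pup 3 (16.4 ± 3.08). Lamb2 had 1732 counts (24.6 TPM) in pup 1 and 1 count (0.01 TPM) in pup 3. Lamc1 and Lamc3 were read in pup 1 alone. Lamc1, the γ chain of most laminins, had 618 counts (19.6 TPM) in pup 1 and 0 in pup 3. By its exact interval its reads were at least 208-fold higher in pup 1. Lamc3 had 1419 counts (18.8 TPM) in pup 1 and 0 in pup 3, at least 478-fold higher in reads in pup 1 by the same kind of interval. In pup 3, then, α and β chain genes were read while Lamc1 and Lamc3 were at 0. Lamb3 had 0 counts in pup 1 and 138 counts (1.55 TPM) in pup 3, and Lama3 was at 0 in both.

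**Figure D3:**
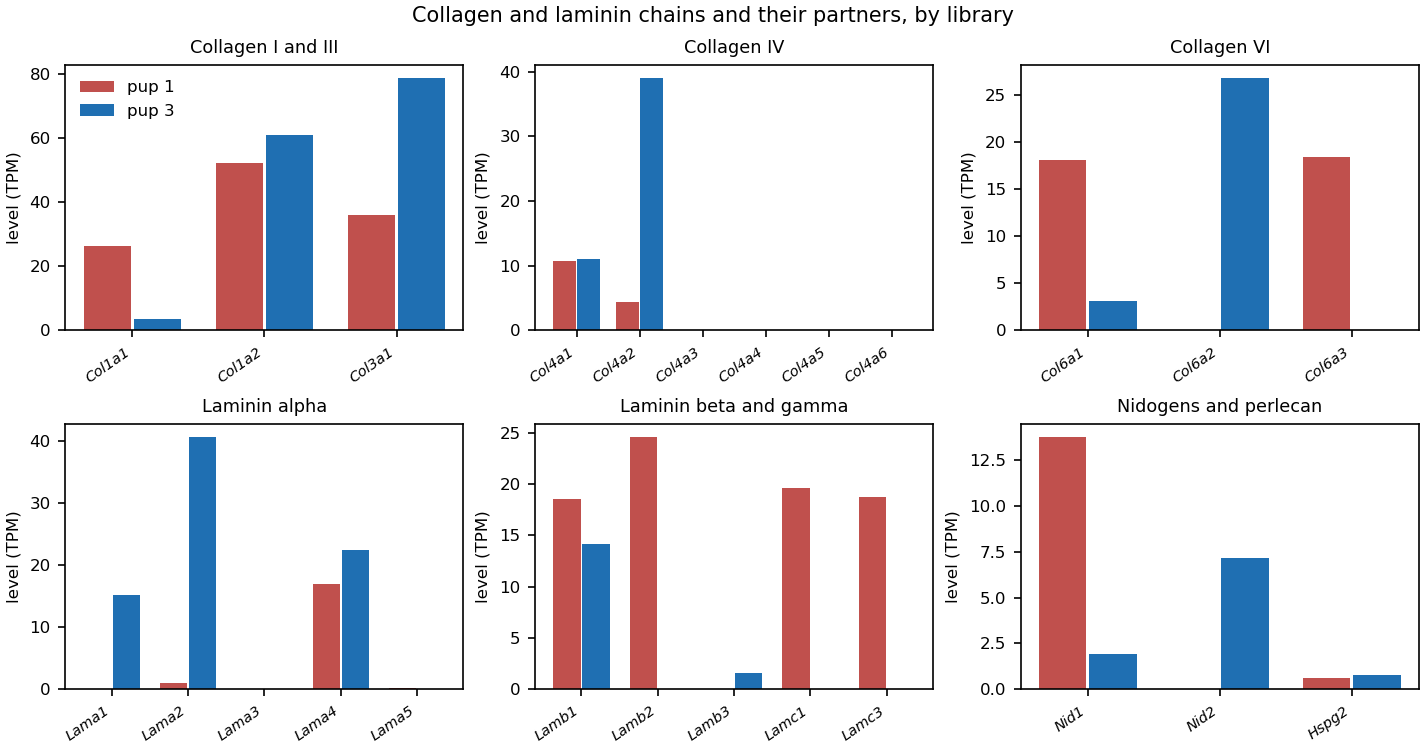
Level (TPM, 1 bar per library) of collagen I, III, IV and VI chains, laminin chains, nidogens and perlecan, with pup 1 left of pup 3 for each gene. Lamc1 and Lamc3 are at 0 in pup 3, Lama1 and Col6a2 at 0 in pup 1, and Col4a1 is near equal in both.

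Of the linker proteins of the basement membrane, Nid1, which bridges laminin and collagen IV, had 13.8 TPM in pup 1 and 1.94 TPM in pup 3. Nid2 had 1 count in pup 1 and 782 counts (7.17 TPM) in pup 3. That value is uncertain, since Nid2 shares 437 exon bases with Rtraf on the opposite strand and the use of strand in counting is not given in the sources used here. Rtraf itself had 2805 counts in pup 1 and 4057 in pup 3. Hspg2, which encodes the heparan sulfate proteoglycan perlecan, stayed below 1 TPM in both, with 0.61 in pup 1 and 0.79 in pup 3. Col18a1, the source of endostatin, had 12.6 TPM in pup 1 and 0 in pup 3. The related gene Col15a1 had 0 in pup 1 and 1.94 TPM in pup 3.

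The small leucine-rich proteoglycans, which bind collagen fibrils, were the only subgroup in which every gene was detected in both libraries, 5 of 5. All 5 had a mean TPM of 10 or more, a level at which 78.2% of all genes were detected in both. Their TPM summed to 192 in pup 1 and 221 in pup 3. Dcn (decorin) had 51.1 TPM in pup 1 and 111 TPM in pup 3, a count ratio of 0.410 (0.387 to 0.435). Lum (lumican), which lies 46984 bases from Dcn on chromosome 10, had 18.3 TPM in pup 1 and 33.7 TPM in pup 3, a ratio of 0.484 (0.439 to 0.533). These neighbouring genes were both lower in pup 1, with intervals that did not overlap, and whether their position bears on this was not tested. Ogn (osteoglycin) had 35.7 TPM in pup 1 and 37.3 TPM in pup 3 (36.5 ± 1.08), with nearly the same level in each. Bgn (biglycan) had 61.9 TPM in pup 1 and 37.4 TPM in pup 3. Fmod (fibromodulin) was the exception in the subgroup, at 25.3 TPM in pup 1 and 2.18 TPM in pup 3, a ratio of 10.3 (8.72 to 12.3).

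Over all transcripts, elastic fibre and cell-binding glycoproteins held the largest share of member TPM, 39.7% in pup 1 and 48.1% in pup 3, because of Sparc. Sparc encodes a collagen-binding glycoprotein that endothelial cells, fibroblasts and glia secrete, and it was the highest of the 80 members in both libraries. Its gene (ENSMUSG00000018593.8) lies at chr11:55394500-55423183 of GRCm38. It had 775 TPM in pup 1 and 838 TPM in pup 3 (806 ± 44.9), rank 146 of 43346 genes by mean TPM. Alone it made up 34.8% of the members' mean TPM, and the top 3 members made up 59.4%. The gene value leans on a short retained-intron transcript of 741 bases, which took 46.0% of the abundance in pup 1 and 51.8% in pup 3. On protein-coding transcripts alone, Sparc had 417 TPM in pup 1 and 403 TPM in pup 3. On that basis it was no longer above Sparcl1 in pup 1. The sum of the subgroup was then 599.8 TPM in pup 1 and 558 TPM in pup 3, in place of 991 and 1024 TPM. Neural matrix genes, at 965.5 TPM in pup 1 and 448.8 TPM in pup 3 on that basis, then had the larger sum in pup 1 but not in pup 3.

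Vtn (vitronectin), which in brain is known from pericytes, had 80.0 TPM in pup 1 and 64.4 TPM in pup 3 (72.2 ± 11.0). Fbln1 and Fbln5, fibulins of elastic fibres and vessel walls, were also close, with 41.2 and 13.0 TPM in pup 1 and 34.5 and 14.5 TPM in pup 3. Fbln2 differed, with 44.5 TPM in pup 1 and 4.65 TPM in pup 3, a count ratio of 12.0 (10.3 to 14.0). Fbln7 had 0 counts in pup 1 and 704 counts (11.0 TPM) in pup 3. Postn (periostin), a glycoprotein of fibroblasts, had 0 counts in pup 1 and 1889 counts (27.4 TPM) in pup 3. By its exact interval its reads were at least 411-fold lower in pup 1. Fbn1, the main microfibril protein, had 6.59 TPM in pup 1 and 2.90 TPM in pup 3, while its fetal relative Fbn2 had 7.66 TPM in pup 1 and 0 in pup 3. Fn1 (fibronectin), a cell-binding glycoprotein of vessels and fibroblasts, had 23.1 TPM in pup 1 and 26.5 TPM in pup 3, the value of pup 3 without protein-coding transcripts.

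Neural matrix genes summed to 968 TPM in pup 1 and 469 TPM in pup 3, or 38.8% and 22.0% of the members' TPM in those libraries. Of the 7 genes, 5 were detected in both, against 17.0% of all genes. Sparcl1 (hevin), a relative of Sparc that astrocytes release and that is known from synapse formation, had 460.3 TPM in pup 1 and 202 TPM in pup 3 (331 ± 183). Sparcl1 (ENSMUSG00000029309.3) lies at chr5:104079111-104113733 and Ncan (ENSMUSG00000002341.8) at chr8:70093085-70120873. Ncan (neurocan), a chondroitin sulfate proteoglycan that binds hyaluronan, had 344 TPM in pup 1 and 131 TPM in pup 3 (238 ± 151). Both were higher in pup 1 in counts too, with ratios of 2.03 (1.99 to 2.07) for Sparcl1 and 2.34 (2.30 to 2.38) for Ncan. Sparcl1 was above Ncan in each library, although the ranges over the pups overlap. Both stood above every member other than Sparc in each library.

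Bcan (brevican), a glial relative of neurocan, was nearly level over all transcripts at 89.3 TPM in pup 1 and 80.9 TPM in pup 3 (85.1 ± 5.93). That range lay within the range of Dcn, the next member in order, and just above that of Vtn. On protein-coding transcripts alone Bcan had 88.7 TPM in pup 1 and 61.1 TPM in pup 3, since 24.5% of its pup 3 value lay on other transcripts. Tnc (tenascin-C), made by radial glia and young astrocytes, had 57.3 TPM in pup 1 and 41.8 TPM in pup 3. Tnr (tenascin-R), the tenascin of oligodendrocyte lineage cells and some neurons, had 7.64 TPM in pup 1 and 12.5 TPM in pup 3. Tnc exceeded Tnr by 2.21 ± 0.77 on the log2 (TPM + 1) scale. Vcan (versican), a large early proteoglycan, had 8.97 TPM in pup 1 and 0.42 TPM in pup 3, and Acan (aggrecan), known from cartilage and perineuronal nets, had 0 counts in both. Ncan exceeded Bcan by 1.31 ± 0.88 and Vcan by 5.83 ± 1.01 on the same scale. Of 17 pairs of related members compared within each library, 10 kept 1 direction in both pups with deposited TPM intervals that did not overlap. In 4 of those 10, 1 gene had 3 or fewer counts in a library, so no size is given for them. The directions of Lama2 over Lama1 and Sparc over Sparcl1 did not hold on protein-coding transcripts alone. On these, Lama2 had 0 and Lama1 15.2 TPM in pup 3, and Sparc had 417 and Sparcl1 460.3 TPM in pup 1.

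**Figure D4:**
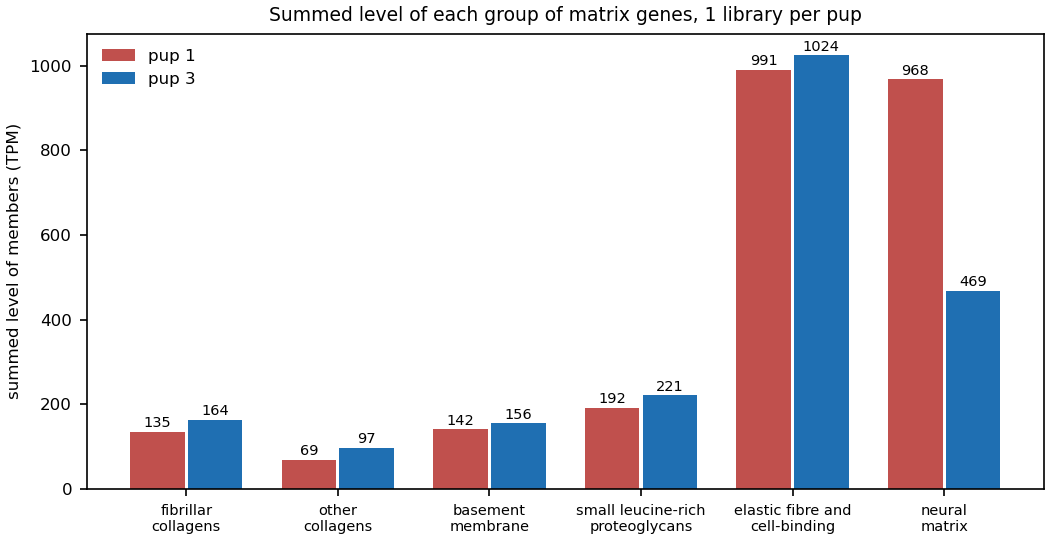
Summed TPM of each subgroup of members, with pup 1 left of pup 3. Neural matrix reached 968 TPM in pup 1 and 469 TPM in pup 3, while each of the other subgroups differed by less than 1.5-fold.

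Several gene levels depended on which transcripts the deposited estimates favoured. For 15 of the 33 members detected in both libraries the effective length behind the TPM was within 1% between libraries, but for 4 it was over 1.5-fold apart. Lama2 had an effective length of 7361 bases in pup 1 and 1021 in pup 3, and Fn1 of 6312 in pup 1 and 2262 in pup 3. Fn1 counts were 2375 in pup 1 and 1363 in pup 3, and Lama4 counts were 516 in pup 1 and 359 in pup 3, so for these genes the count ratio was above 1 while the TPM was lower in pup 1. On protein-coding transcripts alone Fn1 had 23.0 TPM in pup 1 and 0 in pup 3, Lama2 0.96 in pup 1 and 0 in pup 3, and Fbln2 13.4 in pup 1 and 0.33 in pup 3. Protein-coding transcripts made up 82.5% of the members' TPM in pup 1 and 72.9% in pup 3. In 10 members at least 50% of the TPM of a library lay on other transcripts, namely Sparc, Fn1, Fbln2, Lama2, Lama4, Lama5, Col16a1, Col6a3, Col13a1 and Col9a3. A further limit is that the TPM of 16 of the 52 detected members in pup 1, and of 15 in pup 3, lay outside its own deposited interval.

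**Figure D5:**
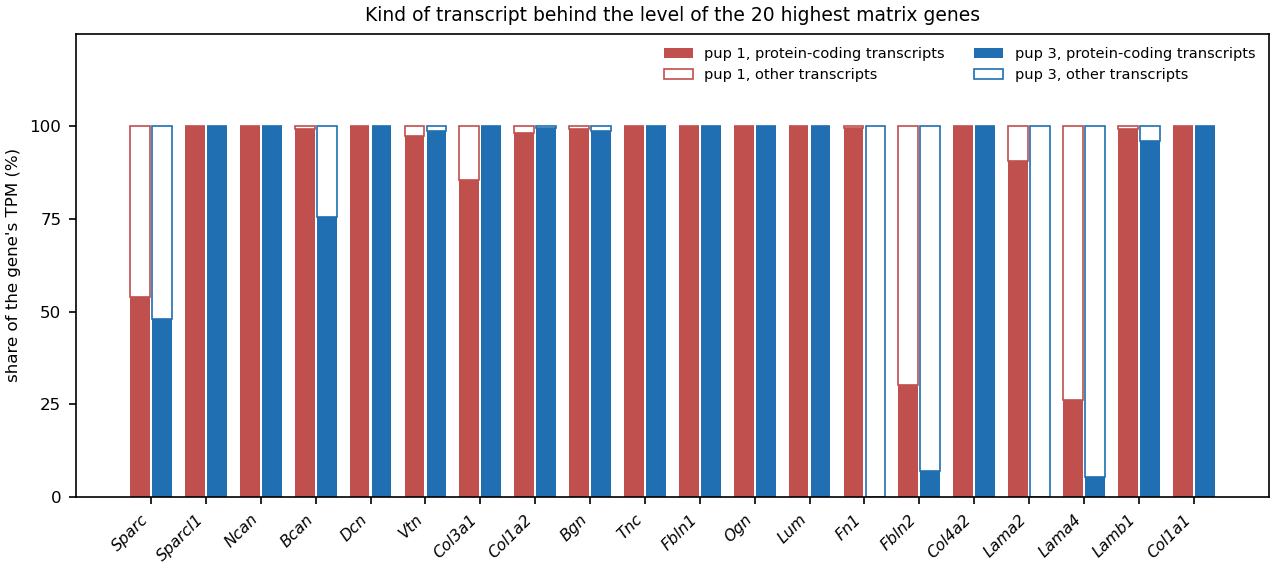
Share of TPM on protein-coding (filled) and other (open) transcripts, in percent, for the 20 members highest by mean TPM, with pup 1 left of pup 3. Fn1 and Lama2 have no protein-coding share in pup 3, and Sparc is near the middle in both libraries.

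The leading transcript was the same in both libraries for 20 of the 27 members that had 2 or more transcripts and reached 50 counts per library, against 62.8% of 5311 genes. Counted by reads instead of abundance it was 17 of 27, against 69.1% of all genes. Among those that switched, Tnc-203 held 61.9% of Tnc abundance in pup 1 and 19.3% in pup 3, and Tnc-204 held 38.0% in pup 1 and 78.0% in pup 3. For Vcan, the transcript of 8332 bases held 97.3% in pup 1 and 0 in pup 3, where the transcript of 12427 bases held all of it. Versican is known to vary in the exons that carry its sugar chains. The switch in Vcan rests on 118 counts in pup 3.

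Genes that make or read the matrix were counted beside the members. Of 29 genes of collagen making, 9 were detected in both libraries, against 17.0% of all genes. Pup 1 alone added 3 (6.41% of all genes) and pup 3 alone added 2 (4.56%). The highest were Ppib, a prolyl isomerase of the collagen fold, with 417 TPM in pup 1 and 557 TPM in pup 3, and P4hb, a subunit of prolyl 4-hydroxylase, with 229.7 TPM in pup 1 and 132 TPM in pup 3. Mia3, which helps collagen leave the endoplasmic reticulum, had 131 TPM in pup 1 and 52.9 TPM in pup 3. Both P4hb and Ppib also serve proteins other than collagen.

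Of 22 matrix receptor genes, 6 were detected in both libraries, against 17.0% of all genes. They were led by Dag1, which encodes the laminin-binding dystroglycan, with 38.0 TPM in pup 1 and 37.6 TPM in pup 3. Itgb1, the β1 integrin chain, had 51.5 TPM in pup 1 and 22.4 TPM in pup 3, and Itga6, its laminin-binding partner, had 20.5 TPM in pup 1 and 26.5 TPM in pup 3. The hyaluronan and link protein list had 1 of 9 genes in both (17.0% of all genes were), Hyal2, with 61.4 TPM in pup 1 and 40.7 TPM in pup 3. Hapln1, a link protein that ties neurocan and its relatives to hyaluronan, had 8.25 TPM in pup 1 and 0 in pup 3. Of 18 genes of matrix turnover, 4 were detected in both, near the 17.0% of all genes. The membrane protease gene Mmp16 had 0 counts in pup 1 and 104 TPM in pup 3, and the inhibitor gene Timp4 had 55.5 TPM in pup 1 and 33.3 TPM in pup 3. The inhibitor gene Timp3 had 79.8 TPM in pup 1 and 1.87 TPM in pup 3.

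Markers of the cells that make matrix were counted in the same way. The 17.0% of all genes detected in both libraries stands beside every marker list, those of neural cells included. Of 8 meningeal fibroblast markers, 6 were detected in both (17.0% of all genes were), with a summed TPM of 2921 in pup 1 and 3909 in pup 3, and Foxc1 was at 0 in both. Their sum was led by Ptgds, a prostaglandin synthase that the leptomeninges secrete, with 2555 TPM in pup 1 and 3513 TPM in pup 3. Igf2 and Slc6a13 came next, and without Ptgds the sum was 366 TPM in pup 1 and 396 TPM in pup 3. Although both sums were lower in pup 1, 4 of the 7 meningeal genes with counts were higher there. Mural markers summed to 55.4 TPM in pup 1 and 83.7 TPM in pup 3, with 3 of 9 in both and Rgs5, Cspg4 and Notch3 highest, while Tagln and Anpep were at 0. Without Rgs5 the mural sum turned round, to 31.2 TPM in pup 1 and 20.5 TPM in pup 3, and 4 of the 7 mural genes with counts were higher in pup 1. Endothelial markers summed to 223 TPM in pup 1 and 259.7 TPM in pup 3, with 3 of 11 in both, with Cdh5 and Pecam1 below the limit and Tek and Slco1a4 at 0 in both. Cldn5, the tight-junction protein of brain endothelium, led them with 147 TPM in pup 1 and 115 TPM in pup 3, followed by Slc2a1 and Esam. Without Cldn5 the endothelial sum kept its direction, at 75.4 TPM in pup 1 and 144.85 TPM in pup 3. Of the 8 endothelial genes with counts, 5 were lower in pup 1 and 3 were higher there. Of the mural and of the endothelial markers detected in either library, 42.9% were detected in both, against 60.8% of all genes. That share was also 42.9% for the basement membrane members, and it was 40% for oligodendrocyte precursor markers. It was 100% for meningeal fibroblast and pan-neuronal markers, and 88.9% for those of astrocytes and radial glia.

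Among neural markers, those of astrocytes and radial glia summed to 2552 TPM in pup 1 and 2930.3 TPM in pup 3. They were led by Fabp7, Aldoc and Vim, with 8 of 10 in both (17.0% of all genes were), and Gfap was at 0. Without Fabp7 that sum turned round, to 1167 TPM in pup 1 and 877 TPM in pup 3, and 6 of the 9 genes with counts were higher in pup 1. Pan-neuronal markers, led by Tubb3, Stmn2 and Gap43, summed to 10716 TPM in pup 1 and 7431 TPM in pup 3, with 6 of 6 in both. Without Tubb3 that sum also turned round, to 4788 TPM in pup 1 and 5637 TPM in pup 3, and 4 of the 6 were lower in pup 1. Oligodendrocyte precursor markers, led by Cspg5, Sox10 and Olig2, summed to 64.7 TPM in pup 1 and 68.3 TPM in pup 3, with 2 of 5 in both. Their sum without Cspg5 turned round as well, to 40.5 TPM in pup 1 and 26.8 TPM in pup 3, while 3 of the 5 were lower in pup 1. These sums thus give no stable direction between the pups for neurons, astrocytes, mural cells or oligodendrocyte precursors. The part of cell makeup in the members' values was not tested. Choroid plexus markers were at or near 0, with a sum of 0.07 TPM in pup 1 and 0.16 TPM in pup 3. Of 9 cartilage and bone markers, Sox9, which glia also express, was detected in both and Alpl in pup 3 alone with 70.7 TPM. The other 7 were at 0 in both, beside the low but present levels of Col2a1, Col9a2, Col9a3 and Col11a2.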

How the data were processed

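RNA-seq of 2 newborn mouse midbrains was read from the tables the authors deposited, 1 gene table and 1 transcript table per library. Per the file headers, reads were mapped to mm10 with GENCODE release M4; the aligner and quantifier, and any use of strand, were not given in the sources used here. In their gene tables the authors deposited expected counts, which divide reads among genes; rounding them came before any interval. The deposited TPM and FPKM values are scaled over all rows, spike-in and tRNA rows included; rows that name no gene held 2.05% of counts in pup 1 and 2.21% in pup 3 and were left out. The authors' interval bounds for TPM (a signal value) and the deposited percent of abundance per transcript were used as given.

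Genes were placed by symbol, and coordinates came from GENCODE M21 (GRCm38). Detection meant a TPM of 1 or more, and a gene was over 4-fold apart where the 95% exact interval of its count ratio lay wholly beyond 4. Log2 ratios of counts added 0.5 count, and those of TPM added 1. Members with a mean TPM of 10 or more, the 4 highest of each subgroup and those over 4-fold apart at that mean were named with values; the other lists give their 3 highest. Transcripts of Tnc and Vcan were named after their values were seen. Of the 30 symbols for collagen making, Lepre1 is an older name of P3h1, which left 29. A result for 1 gene is not reported here. The members and lists were chosen with earlier results of these data known. With 1 library per pup, spread between pups and between preparations cannot be told apart, and nothing says whether the pups were independent of each other beyond their labels.

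On simulated counts at these depths, the 4-fold rule listed 99% of 100 genes changed 8-fold, 0 of 100 changed 2-fold and 0 of 43146 unchanged genes. The changed genes were drawn only from those with a mean of 50 or more counts. The unchanged genes included the 28717 at 0 counts in both libraries, which could not be listed. The simulation drew counting error only, so it says nothing on errors from amplification or small input. Python 3.11.15, numpy 2.4.6, scipy 1.17.1, pandas 2.3.3, matplotlib 3.10.9 and R 4.3.3 were used; edgeR 4.0.16 (TMM) and DESeq2 1.42.0 gave scaling factors only. Alternatives were other detection limits, scalings, pseudocounts, posterior means, transcript classes and 1 library at a time.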

Additional observations from a re-analysis of the deposited data

How the results depend on the processing

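The 33 members detected in both libraries became 20 at a TPM of 5 or more, and were between 32 and 36 at the other limits tried. With 1 library at a time, 42 members were detected in pup 1 and 43 in pup 3. On protein-coding transcripts only, an alternative chosen after seeing the data, 29 were detected in both. The 27 members over 4-fold apart became 9 when only those with a mean TPM of 10 or more were counted, which follows from fewer genes being counted. TMM and DESeq2 factors each gave 26, without Col25a1. Both moved the median log2 ratio of all genes, to 0.19 and 0.20; the members' median was then 0.41 and 0.42. On the log2 (TPM + 1) scale the members' median was -0.0063, beside 0.08 over all genes, and the cause of the change of sign was not tested. The 10 pairs of 1 direction were 12 with posterior mean TPM. They were 15 with either library alone, where the pups need not agree and the count cannot fall. Members higher in pup 1 among the 33 were 17 by TPM and 19 with 1 effective length per gene, also chosen after seeing the data. Sums of subgroups on protein-coding transcripts and marker sums without the highest gene were likewise added after seeing the data. No paired analysis was possible because both libraries belong to 1 group. With 1 library per pup, no ratio has a replicate check. What a count of 0 owes to the small input, to depth or to the tissue was not tested.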
